A study of Mus musculus with 66 samples.

Results

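The clustered protocadherin genes lie side by side on mouse chromosome 18 in 3 subclusters, Pcdha, Pcdhb and Pcdhg. Members were the genes of the GENCODE vM21 annotation (GRCm38) whose symbol starts with Pcdha, Pcdhb or Pcdhg and which fall between 36.9 and 37.9 Mb of chromosome 18. There were 58 such members among the 21756 genes given a start window, with 14 in Pcdha, 22 in Pcdhb and 22 in Pcdhg. Of the 2031789 islands listed in all libraries, 1716 touched this window.

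Clustered protocadherins are cell adhesion proteins that label single neurons. In Pcdha and Pcdhg, each variable first exon has its own promoter and is spliced to constant exons at the far end of the subcluster, while each Pcdhb gene is mostly a single coding exon. A neuron uses only a few of the alternate promoters, chosen through CTCF and cohesin looping, and the C-type members (Pcdhac1, Pcdhac2, Pcdhgc3, Pcdhgc4 and Pcdhgc5) are used more broadly. H3K9me3 is a mark of heterochromatin that the methyltransferase Setdb1 is known to place at this locus in neurons, and H3K36me3 is laid down along the bodies of transcribed genes.

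Both marks were measured by ChIP-seq. The tissue was prefrontal cortex (PFC) from adolescents of the inbred mouse strain DBA/2J, given water or ethanol by gavage. Ethanol mice received ethanol at 4 g/kg, dissolved at 25% w/v, intermittently between postnatal days (PND) 29 and 42, water mice received none, and PFC was collected 24 h after the final gavage. Each pool held the PFC of 3 mice of 1 sex and 1 treatment, with 6 ethanol and 5 water pools in males and the same numbers in females. No allele was altered in any group, and PFC is a mixture of neurons and glia, so fewer cells with a mark and less of it per cell cannot be told apart.

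For each of the 44 precipitated libraries the data are a list of islands, runs of 200 bp windows enriched over the input of the same pool, with the ChIP reads and the input reads of each island. H3K9me3 libraries held 5.66 to 13.95 M ChIP reads in islands and H3K36me3 libraries 1.68 to 4.74 M. The H3K9me3 library of the second female water pool stood apart with a median fold of 1.15 over input, where the highest library had 1.68, and the sixth male ethanol pool had the lowest H3K36me3 median fold, 1.05. H3K36me3 islands with a false discovery rate (FDR) of 0.01 or lower lay over 2 of 10 neuron markers (Rbfox3 and Map2) in at least 11 libraries, over 0 of 6 oligodendrocyte, 0 of 5 astrocyte and 1 of 4 microglia markers (Cx3cr1), and over 0 of 8 genes of other tissues. The median neuron marker had such an island in 5.5 libraries and the median gene of other tissues in 0, although Ins2 had one in 4 and Krt5 in 3. The neuron markers Nrgn and Thy1, the oligodendrocyte markers Mag and Mog and the astrocyte marker Gfap had none in any library. Islands at any FDR, the set analysed below, lay over Krt5 and Ins2 in 12 libraries each, as often as over the oligodendrocyte marker Mbp. They lay over Rbfox3 in 19 libraries, Syt1 and Map2 in 18 and Cx3cr1 in 17, and over every other neuron marker in 8 or fewer.

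The window was rich in H3K9me3. Listed H3K9me3 islands covered a median of 19.9% of the window (range 12.5 to 25.4% over 22 libraries), against a median of 6.32% of the autosomes (range 4.30 to 8.08%), and the window exceeded the autosomes in 22 of 22 libraries. H3K36me3 islands covered a median of 7.85% of the window (3.76 to 11.9%) against 3.89% of the autosomes (2.50 to 4.82%), again higher in 22 of 22 libraries. A library had 40 to 65 H3K9me3 islands and 12 to 36 H3K36me3 islands in the window.

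These islands seldom lay on protocadherin exons. Of the 204 kb of member exons, H3K9me3 islands covered a median of 2.98% (0.226 to 5.07%), whereas they covered 23.9% (15.6 to 30.6%) of the remaining bases of the window. Repeats moved with this contrast: H3K9me3 islands covered 41.8% of the soft-masked repeat bases of the window and 6.38% (2.39 to 10.2%) of its other bases. That range overlaps the range of the exons, but within each library exon coverage was the lower. In the fourth male ethanol pool, for example, it was 5.07% against 10.2%, and in the second female water pool 0.294% against 2.39%. The part of repeats in the low exon coverage was not tested. For H3K36me3, the median was 0% of exon bases (highest 0.392%) and 9.81% (4.72 to 14.9%) of other bases.

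**Figure D1:**
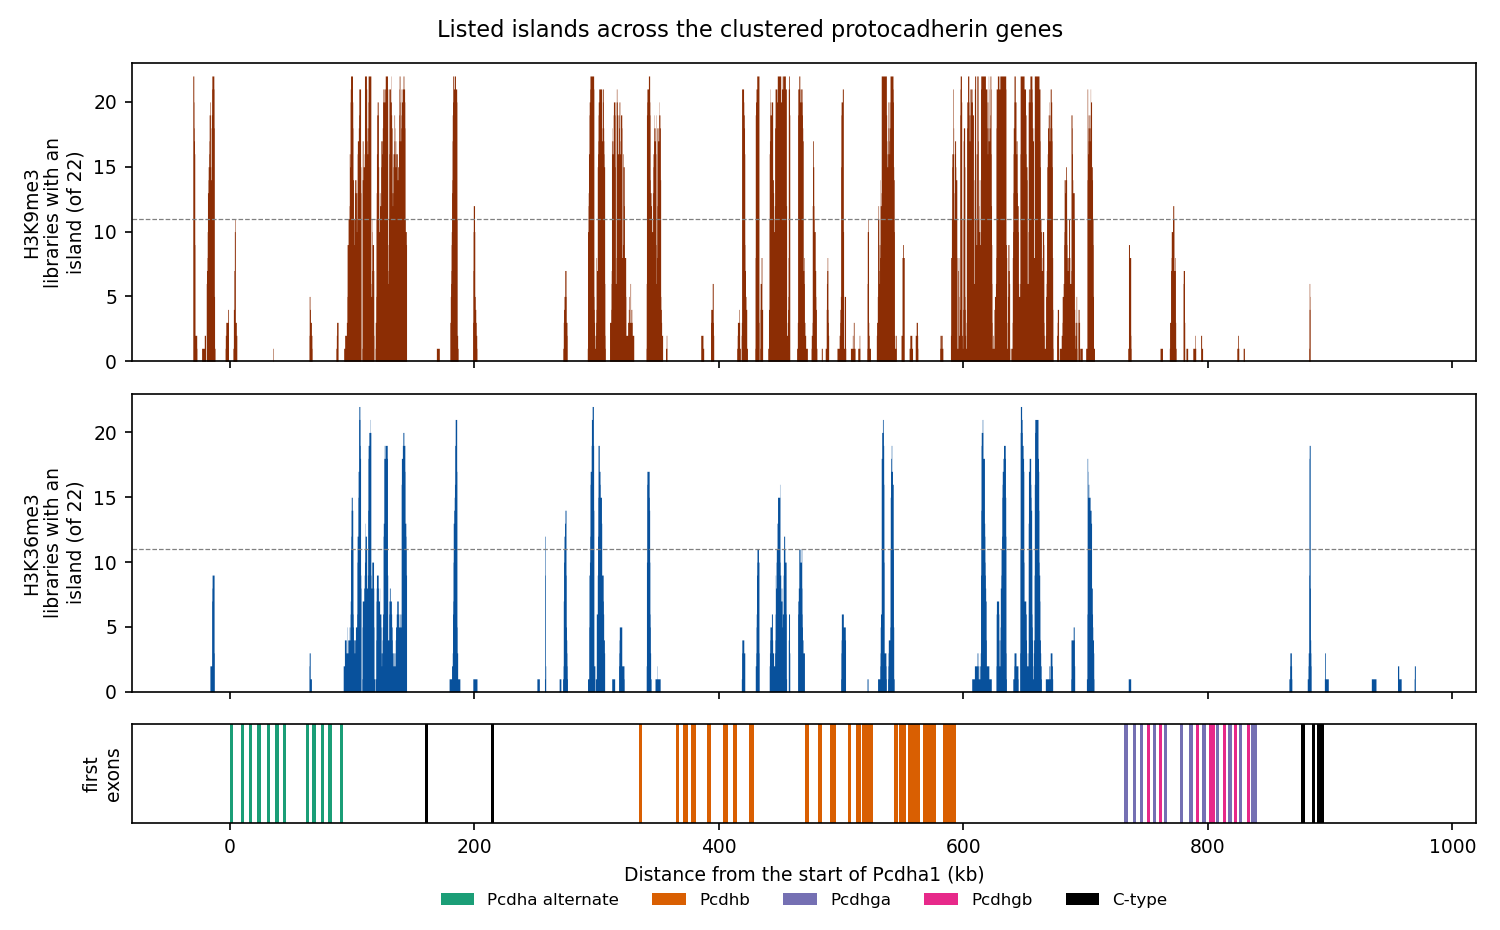
Number of libraries (of 22) with a listed island at each 200 bp step of the window, for H3K9me3 (top) and H3K36me3 (middle), against the distance from the start of Pcdha1 in kb. Bars at the bottom show the first exon of each member, coloured by family, and the dashed line is 11 libraries. Islands of both marks stack up between the blocks of exons, and the Pcdhg exons at the right are nearly bare.

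Islands were then counted at the start of each member. A start window ran from 500 bp before to 2500 bp after the gene start. An H3K9me3 island reached the start window of 16 of 58 members (27.6%) in at least 1 library, where 8.45% of all start windows had one. In 11 or more libraries it did so for 1 member (1.72%), against 2.35% of all start windows, and in all 22 libraries for none. First exons gave a like count, with an island in at least 1 library in 12 Pcdhb, 5 Pcdhg and 0 Pcdha members.

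The 16 members with any H3K9me3 island were unevenly spread. They were 10 of 22 Pcdhb members, 5 of 22 Pcdhg members and 1 of 14 Pcdha members, Pcdha9, with an island in 2 libraries. None of the 5 C-type members had an H3K9me3 island in its start window in any library. Of the 12 non-clustered protocadherins, which lie elsewhere and have promoters of their own, 0 had an island of either mark at the start. Zinc-finger genes of the Zfp series, a class well known for H3K9me3, had an H3K9me3 island in at least 1 library at 12.1% of 397 genes. In 11 or more libraries the share was 6.55%.

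Pcdhb15 was the member most often marked at its start (chromosome 18, 37473540 to 37476340, plus strand). Its start window held an H3K9me3 island in 15 of 22 libraries, namely 3 male ethanol, 3 male water, 5 female ethanol and 4 female water pools. Where an island was listed, the ChIP reads in the window ran from 33 through a median of 38 to 94 in male ethanol pools, with 15 to 22 input reads. The male water pools had 35, 41 and 96 ChIP reads, the 5 female ethanol pools ran from 22 to 32, and the 4 female water pools from 8 to 33. Ethanol and water pools overlapped within each sex, and male counts were higher than or equal to the highest female count. These are raw counts, and male H3K9me3 libraries included the deepest of all. These islands belong to a region of 11.6 kb upstream (37462001 to 37473600) that ends inside the first 61 bp of the gene, in its 5′ untranslated region.

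Pcdhb16 and Pcdhb22 followed, with an H3K9me3 island in the start window in 8 libraries each. Pcdhb16 had 9, 10 and 51 ChIP reads in the 3 male ethanol pools with an island, and Pcdhb22 had 18 and 43 in the 2 such pools. Both windows were occupied in every group, in 1 to 3 pools. Pcdhb9 and Pcdhb18 had an island in 3 libraries, Pcdhb17 and Pcdhgb4 in 2, and Pcdhb10, Pcdhb12, Pcdhb13, Pcdhb21, Pcdhgb2, Pcdhga8, Pcdhgb7 and Pcdhga11 in 1.

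Levels at these starts varied. The log2 ratio of ChIP to input reads, less the same ratio over all autosomal islands of the library, had a median of 1.34 at Pcdhgb2, 1.23 at Pcdhb13 and 1.22 at Pcdhb21, the 3 highest, each from 1 library. It was lowest at Pcdhga8 (0.0062), Pcdhb9 (0.11) and Pcdha9 (0.23), over 1 to 3 libraries. Single-library values of this kind rest on few reads and give no order among the members.

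H3K36me3 was rarer still at member starts. An island reached the start window of 2 of 58 members (3.45%) in at least 1 library, against 14.2% of all start windows, and of 0 members in 11 or more, against 1.44%. These members were Pcdhb15, in 5 libraries, and the C-type gene Pcdhgc4, in 2 libraries, where the island overlapped the window by its edge and brought 0 and 1 ChIP reads. With FDR at 0.01 or lower, no member had an H3K36me3 island in its start window.

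**Figure D2:**
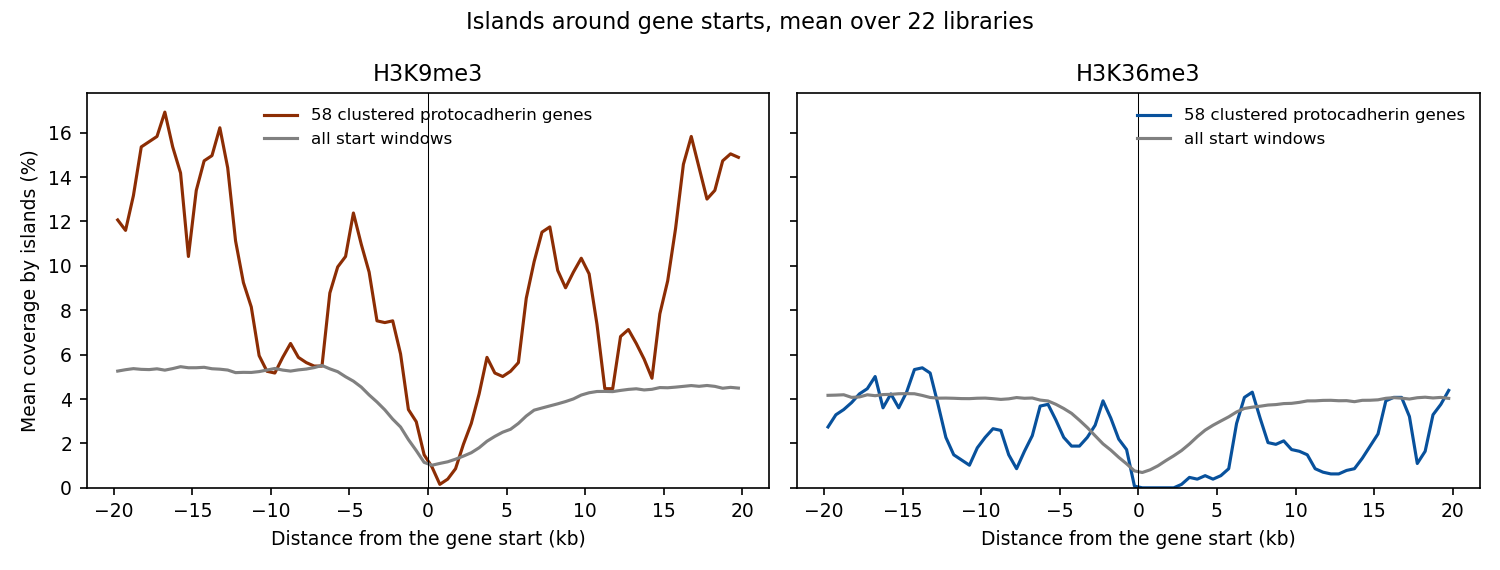
Mean share of bases under listed islands (%, mean over 22 libraries) by distance from the gene start (kb, in 500 bp steps along the direction of transcription), for the 58 members and for all 21756 start windows in grey. Between 1 kb upstream and 3 kb downstream of the start the members averaged 1.46% for H3K9me3 and 0.245% for H3K36me3, with higher H3K9me3 coverage on both sides.

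The distance profile puts numbers on this gap. From 20 to 10 kb upstream of member starts, H3K9me3 islands covered 12.7% on average, from 5 to 1 kb upstream 8.14%, across the start from 1 kb before to 3 kb after 1.46%, and from 3 to 10 kb after 8.00%. The corresponding values for all genes were 5.33%, 3.62%, 1.30% and 3.15%. Coverage at the start itself was near that of other genes, and coverage on both sides was higher. For H3K36me3, the members had 0.245% across the start against 1.09% of all genes. Neighbouring members share these flanks, so the 58 profiles are not independent.

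Member start windows also differed in sequence from other starts. The median share of soft-masked repeats was 4.73% in member windows, against 15.6% over all start windows, and the ratio of observed to expected CpG was 0.484 against 0.409. GC content was 49.5% and 49.3%. These sequence values come from the GRCm38 reference, which is C57BL/6J and not DBA/2J.

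Regions were then defined as positions that an island covered in 11 or more of 22 libraries. There were 52 H3K9me3 regions in the window, together 200 kb, of which 28 had an island in all 22 libraries. Relative to members and other protein-coding genes, 37 of the 52 were intergenic, 12 were intronic and 3 touched a member exon. Of these, 1 intergenic region overlapped the lincRNA gene 4930517L18Rik and 1 intronic region the antisense gene Gm37751. The 26 H3K36me3 regions covered 65 kb, 4 had an island in all 22 libraries, and 18 were intergenic and 8 intronic with no exon base. Folds below are ChIP over input reads of the whole island at a region, divided by the library constant the authors used, as medians over libraries. Neighbouring regions under 1 island of a library share its fold and are not separate measurements there. An example is 1.59 in the second male ethanol pool at the H3K9me3 regions that start at 37038401 and 37046601.

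Before the first Pcdha exon, 2 H3K9me3 regions had islands in 22 of 22 libraries. The region at chr18:36898601-36901600 had a median fold of 2.38, and that at chr18:36912001-36917600 had 2.25. Along the exons of Pcdha1 to Pcdha12 only 1 short region of 0.4 kb followed, in 11 libraries, in the intron between Pcdha1 and Pcdha2. This stretch carries the alternate promoters, and Pcdha1 to Pcdha8 had no H3K9me3 island in the start window or in the first exon in any library.

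The long intron between Pcdha12 and Pcdhac1 held the Pcdha block of H3K9me3. Its 8 regions, from 37027001 to 37073800, summed to 40.6 kb, and 4 of them had an island in all 22 libraries. Their median folds ran from 1.36 to 1.64, and those of the 2 regions between Pcdhac1 and Pcdhac2 were 1.19 and 1.20. They lie in the bodies of the 12 alternate Pcdha genes, which extend to the shared constant exons. Pcdhac1 started 16.2 kb and Pcdhac2 13.1 kb past the nearest H3K9me3 region.

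Between Pcdhac2 and Pcdhb1, 5 intergenic H3K9me3 regions (20.2 kb) rose in fold from 1.44 at the Pcdha side to 2.4 at the Pcdhb side. Inside Pcdhb, 15 regions filled the larger spaces between genes, with 3 between Pcdhb1 and Pcdhb2 (10.4 kb) and 5 between Pcdhb8 and Pcdhb9 (22.8 kb, all 5 in 22 libraries). Their folds were similar, 1.74 to 2.28. Starts of Pcdhb2 to Pcdhb6 lay 12.2 to 28.4 kb from any H3K9me3 region.

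Of the H3K9me3 regions, 3 ran into exons, all of Pcdhb genes. Beside the upstream region of Pcdhb15, a region of 0.4 kb lay in the long 3′ untranslated region of Pcdhb14 in 11 libraries. The region at chr18:37520401-37524800 covered 3.62 kb of untranslated and 462 bp of coding sequence of Pcdhb22, from 2.53 kb after its start to past its end, in 22 of 22 libraries. It was the only first exon touched by an island in every library, with a median fold of 2.28. ChIP reads there ran from 44 through a median of 124 to 208 in male ethanol pools and were 141, 140, 127, 116 and 78 in male water pools. They ran from 26 through 110 to 165 in female ethanol pools and were 103, 39, 105, 129 and 167 in female water pools. All 4 groups overlapped.

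The densest H3K9me3 lay between Pcdhb22 and Pcdhga1. There were 19 regions with 70.6 kb, counting the one at Pcdhb22, and 12 of them had islands in all 22 libraries. The area between the subclusters (137 kb) was covered to 47.9% ± 6.8 (SD, n = 22), with 16.5 ± 2.2 islands a library. The region with the highest median fold of the window lay here, at chr18:37529801-37531400, with 2.61 in 18 libraries. Slc25a2, a protein-coding gene in this area for a mitochondrial carrier, had an H3K9me3 island in its start window in 9 libraries and an H3K36me3 island in 4. Taf7, the gene of a TFIID subunit in the same area, had none of either mark. The region at chr18:37618201-37621000, in 19 libraries, overlapped the lincRNA gene 4930517L18Rik.

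Pcdhg was almost free of both marks. H3K9me3 covered 2.10% ± 1.2 (SD, n = 22) of its 180 kb, and 1 region of 1.2 kb between Pcdhga5 and Pcdhga6 passed, in 12 libraries. The 3 Pcdhg C-type genes started 104, 113 and 117 kb past the nearest H3K9me3 region. Downstream of the subcluster, to the end of the window, no H3K9me3 island was listed in any library. The single H3K36me3 region of Pcdhg, 1.0 kb long, lay 1.28 kb upstream of Pcdhgc4 in 19 libraries with a median fold of 1.19.

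**Figure D3:**
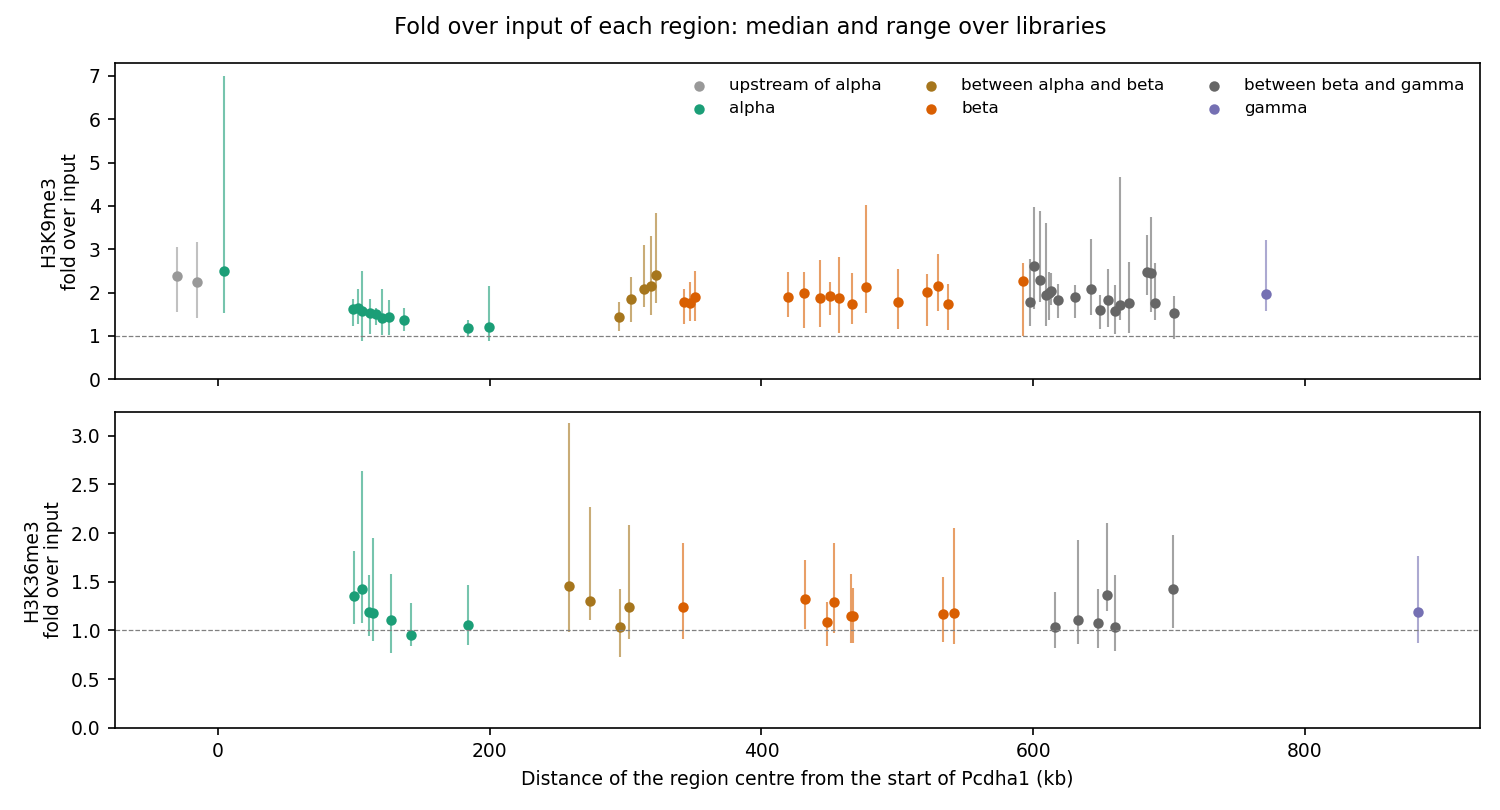
Fold over input of each region by its distance from the start of Pcdha1 (kb): points are medians and lines the lowest to highest library with an island, H3K9me3 above and H3K36me3 below, coloured by area. Median H3K9me3 folds ran from 1.19 in the Pcdha introns to 2.61 between Pcdhb and Pcdhg, and median H3K36me3 folds from 0.956 to 1.45, with 1 of 26 regions below the dashed line of no enrichment.

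The subclusters ranked alike in every library by coverage. H3K9me3 covered 22.3% ± 3.6 of Pcdhb, 16.7% ± 2.6 of Pcdha and 2.10% ± 1.2 of Pcdhg (SD, n = 22), and Pcdhb exceeded Pcdha and Pcdha exceeded Pcdhg in 22 of 22 libraries. The log2 enrichment of the islands over the library's own autosomal islands was 0.42 ± 0.055 in Pcdhb and 0.034 ± 0.058 in Pcdha, higher in Pcdhb in 22 of 22 libraries, by 0.27 to 0.49. Pcdha islands were thus at the level of an average island and Pcdhb islands above it. In Pcdhg, with at most 5 islands a library, the enrichment scattered from −0.61 to 1.27 (0.36 ± 0.51, n = 20).

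Input density ran opposite to the order of Pcdha and Pcdhb. Input reads per kb of H3K9me3 island averaged 24.4 ± 1.9 in Pcdha, 20.0 ± 1.5 in Pcdhb and 20.5 ± 1.6 between Pcdhb and Pcdhg, and ChIP reads per kb averaged 38.6 ± 5.5, 41.4 ± 5.7 and 41.8 ± 5.8 (SD, n = 22). ChIP density was close in the 3 areas and input density was highest in Pcdha. Pcdha and Pcdhb therefore differed more in input than in ChIP density.

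H3K36me3 ranked the areas differently. Coverage was 9.63% ± 2.8 in Pcdha, 6.67% ± 2.8 in Pcdhb and 0.954% ± 0.56 in Pcdhg, and Pcdhb exceeded Pcdha in 4 of 22 libraries. With islands of FDR 0.01 or lower, coverage was 3.22% in Pcdha and 1.56% in Pcdhb, so most of the H3K36me3 island length in both had a higher FDR. Enrichment over the library's islands was 0.069 ± 0.12 in Pcdha and 0.12 ± 0.15 in Pcdhb, with Pcdhb higher in 14 of 22 libraries, within the spread of libraries. Past the region between Pcdhac1 and Pcdhac2 (chr18:37113001-37116000), no H3K36me3 region lay in the Pcdha bodies up to the constant exons. A short H3K36me3 region of 0.4 kb began just past the end of Pcdha (chr18:37188001-37188400) in 12 libraries and overlapped no H3K9me3 region.

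**Figure D4:**
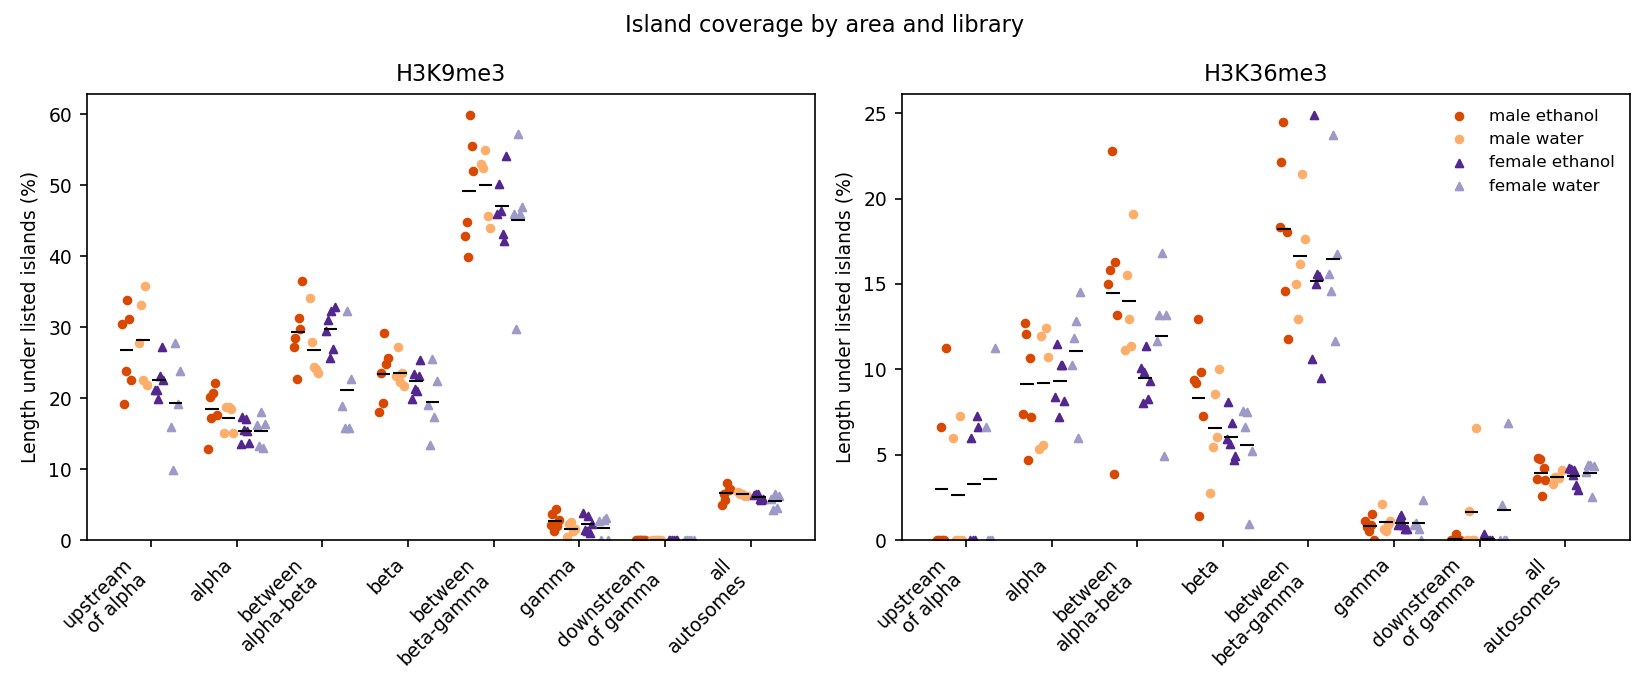
Share of each area under listed islands (%) in every library, H3K9me3 on the left and H3K36me3 on the right, with black lines at group means. Circles are male and triangles female pools. H3K9me3 coverage was highest between Pcdhb and Pcdhg (29.7 to 60.0%) and lowest in and after Pcdhg, and the groups overlapped in each subcluster.

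H3K36me3 islands, listed at any FDR, lay largely on H3K9me3 islands. Of the 26 H3K36me3 regions, 23 (88.5%) overlapped an H3K9me3 region, which were 19 of the 52 H3K9me3 regions (36.5%). Within a pool, a median of 87.0% of the H3K36me3 island length in the window was also under an H3K9me3 island (75.5 to 98.2% over 22 pools), against 64.5% over the autosomes (47.5 to 81.5%). In the other direction the median was 34.7% in the window and 38.8% over the autosomes.

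Both marks also lay on repeats. Soft-masked repeats made up 37.9% of the window, but a median of 80.7% of H3K9me3 island bases (75.0 to 88.1%) and 89.6% of H3K36me3 island bases (84.4 to 95.4%) per library. The median H3K9me3 region of the window was 82.7% repeat, lower than the 97.1% over all 52072 H3K9me3 regions of the genome, and the median H3K36me3 region was 99.3% repeat against 98.3%. Repeats were most frequent between Pcdhb and Pcdhg (58.2% of bases) and least frequent in Pcdhg (20.5%). The part of read mapping over repeats in these islands was not tested.

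The effect of ethanol was tested with edgeR, in each sex, in regions where each of the 11 libraries of that sex had an island. No member start window met this, so 0 of the 58 members had a test of its own and the results below are about regions between and within the genes. Pools are separate samples of mice, and p-values measure the spread between pools.

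In males, 33 H3K9me3 regions of the window were tested and 2 (6.06%) reached an unadjusted p of 0.05, against 2.9% of all 27625 regions tested. With Benjamini-Hochberg adjustment, 0 regions passed (0.0% of all regions), with a smallest adjusted p of 0.999. DESeq2 likewise called 2 unadjusted and 0 adjusted. The log2 differences ranged from −0.25 to 0.37 with a median standard error (SE) of 0.12. The 2 regions went in opposite directions.

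The first lay between Pcdhb8 and Pcdhb9 (chr18:37371201-37375200, intergenic). Its level in males, in CPM (ChIP reads scaled by the library's total over tested regions, with TMM factors), ran from 22.95 through a median of 27.9 to 31.8 in ethanol pools, and was 15.3, 27.2, 24.4, 17.7 and 20.8 in water pools. The ethanol pools were mostly higher and the groups overlapped. The difference was 0.37 on the log2 scale (SE 0.15, edgeR adjusted p = 0.999), and leaving out ethanol pool 3 or 4 or water pool 1 or 4 left it above an unadjusted p of 0.05, with 0.27 as the smallest difference. Input reads of the same islands differed by 0.062 (SE 0.17), and the ratio of ChIP to input reads by 0.34 (SE 0.14, limma adjusted p = 0.868), which also reached an unadjusted 0.05. In females the difference was 0.46 with an SE of 0.40 (edgeR adjusted p = 0.999), and water pools 2 and 4 were low, at 1.93 and 9.06 CPM. Their input reads there were low too, at 4 and 20, against 60 to 66 in the other female water pools. The folds of their islands, 1.80 and 2.02, lay within the range of the group (1.69 to 2.29), so the low CPM was not a low ChIP to input ratio. Pool 2 is the library that stood apart, and its part in this value was not tested.

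The second lay in the intron between Pcdha12 and Pcdhac1 (chr18:37052601-37059400). Male ethanol pools ran from 34.0 through 41.0 to 46.4 CPM, and male water pools were at 45.5, 48.0, 47.0, 46.4 and 43.96 CPM. Of the 6 ethanol pools, 5 were below every water pool and 1 was among them. The level was lower with ethanol by −0.18 on the log2 scale (SE 0.077, edgeR adjusted p = 0.999). Without ethanol pool 2 or 3 or water pool 2 or 3 it missed an unadjusted 0.05, with −0.14 as the smallest difference, and with islands of FDR 0.01 or lower it was −0.12 and missed it too. Input reads of these islands were also lower, by −0.16 (SE 0.11), and the ratio of ChIP to input reads differed by −0.036 (SE 0.097, limma adjusted p = 0.983). In females the difference was 0.027 (SE 0.13).

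In females, 0 of 30 H3K9me3 regions reached an unadjusted p of 0.05 in edgeR, against 3.99% of all 27168 regions, and DESeq2 gave 0 as well. The adjusted count was 0 (0.0% of all regions). The smallest p was 0.199 and the log2 differences ranged from −0.21 to 0.46, with SEs from 0.066 to 0.40.

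For H3K36me3, 7 regions could be tested in each sex. In males, 1 of 7 reached an unadjusted p of 0.05, against 5.69% of all 7472 regions, and 0 passed adjustment (0.0%). In females, 0 of 7 did in edgeR and in DESeq2, against 3.58% of 8996 regions, with a smallest p of 0.289, and 0 passed adjustment (0.0%).

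The male H3K36me3 region lay in the intron between Pcdha12 and Pcdhac1 (chr18:37034401-37037200). Ethanol pools ran from 47.3 through 54.9 to 61.8 CPM, and water pools were at 28.7, 42.7, 41.6, 32.8 and 44.99 CPM. Each ethanol pool was above each water pool. The share of all tested regions whose groups do not overlap is not given here, so this separation cannot be set against it. The difference was 0.51 on the log2 scale (SE 0.15, edgeR adjusted p = 0.843). Input reads of the same islands differed in the same direction and by more, 0.76 (SE 0.23, edgeR adjusted p = 0.993), and the ratio of ChIP to input reads turned to −0.27 (SE 0.15, limma adjusted p = 0.767). In females the difference was 0.12 (SE 0.14, edgeR adjusted p = 0.996).

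**Figure D5:**
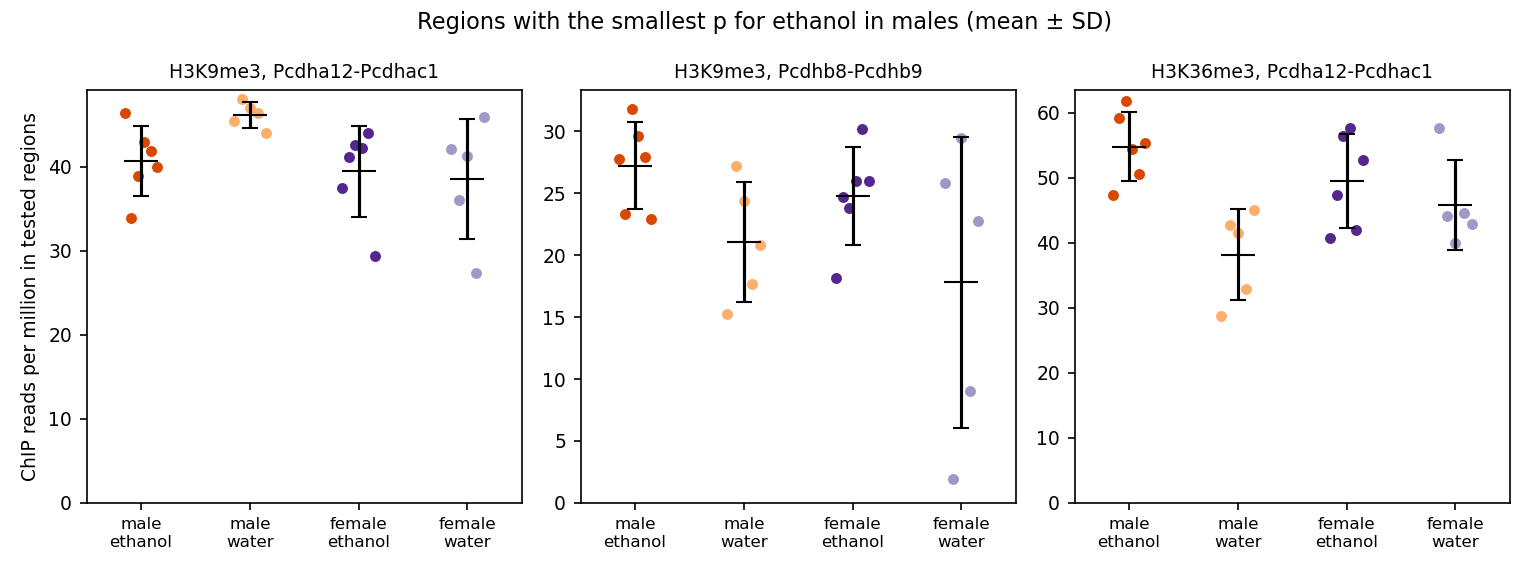
ChIP CPM over tested regions for each pool, with mean ± SD, in the 3 regions with an unadjusted p of 0.05 or lower in males; each panel names the mark and the members on either side. Male H3K36me3 ethanol pools (47.3 to 61.8) sit above the water pools (28.7 to 44.99), and the groups overlap in every other pair. How often groups do not overlap over all tested regions is not given here. Values were scaled within each sex.

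No difference in treatment effect between the sexes was called. Where each of the 22 libraries had an island, the interaction of treatment and sex was tested for 28 H3K9me3 and 4 H3K36me3 regions, and edgeR called 0 of each at an unadjusted p of 0.05, against 3.59% and 5.9% of all regions. DESeq2 called 0 of each too, and no region passed adjustment (0.0% for both marks). For the male H3K36me3 region the interaction was −0.38 (SE 0.20, edgeR adjusted p = 0.822).

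Between females and males, 1 of 28 H3K9me3 regions had an unadjusted p of 0.05 or lower, against 10.1% of all 22004 regions, and 0 passed adjustment, against 4.2%. It was the region upstream of Pcdha1 (chr18:36898601-36901600). Female pools ran from 12.1 through 16.5 to 21 CPM and male pools from 16.7 through 19.6 to 22.3 CPM, with overlap. The difference was −0.25 (SE 0.094, edgeR adjusted p = 0.231). Without TMM factors the difference was −0.36 (SE 0.10) and this region passed adjustment (edgeR adjusted p = 0.0275). Input reads differed by −0.22 (SE 0.15), and the ratio of ChIP to input reads by −0.028 (SE 0.095, limma adjusted p = 0.987). For H3K36me3, 1 of 4 regions reached an unadjusted p of 0.05, against 5.82% of all 5741 regions. It lay between Pcdhb22 and Pcdhga1 (chr18:37576401-37579600), with 41.3 through 64.6 to 86.8 CPM in female and 52.5 through 79.9 to 86.0 CPM in male pools, which overlapped. The difference was −0.25 (SE 0.12, edgeR adjusted p = 0.841), the ratio of ChIP to input reads differed by −0.023, and 0 passed adjustment, against 0.54%. For both marks, the shares over all regions in this comparison were taken over the autosomes and chromosome X. Shares over the autosomes alone are not given here, so the window, which is autosomal, cannot be called poorer in sex differences.

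Coverage and enrichment of whole subclusters did not separate the treatments. Of 24 comparisons of ethanol with water pools (3 subclusters, both marks, both sexes, coverage and enrichment), the groups overlapped in all 24, and in 23 the means differed by less than the larger SD of the 2 groups. H3K9me3 coverage of Pcdhb was 23.4% ± 4.1 (n = 6) in male ethanol and 23.6% ± 2.2 (n = 5) in male water pools, and 22.4% ± 2.0 and 19.5% ± 4.6 in females. In Pcdha it was 18.5% ± 3.3 and 17.2% ± 1.9 in males and 15.4% ± 1.6 and 15.4% ± 2.2 in females. The exception was H3K9me3 enrichment of Pcdhb in males, 0.47 ± 0.033 with ethanol and 0.41 ± 0.046 with water, whose ranges overlapped.

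Among genes known to act on these clusters, H3K36me3 islands touched the starts of Setdb1 in 2 libraries and of Smchd1, a chromatin silencer, in 1, and neither had an H3K9me3 island there. Ctcf, the cohesin subunits Rad21, Smc1a, Smc3, Stag1 and Stag2, and Trim28, the partner of zinc-finger repressors, had none of either mark.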

How the data were processed

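Samples were grouped by the sex, treatment, mark and replicate number in their titles. Per the study's methods, the authors trimmed H3K9me3 reads with CutAdapt and aligned them to GRCm38 with Bowtie2 2.4.1. They kept single-location reads outside blacklisted regions and called islands with SICER in windows of 200 bp at a gap of 400 bp. The gap was 600 bp for H3K36me3 per the file names. Every library was taken here as paired with the input of its pool, which those methods do not state. For H3K36me3, further steps: not given in the sources used here. The deposited values are unnormalized counts of ChIP and input reads per island, p-values and FDR q-values, and a fold, the ratio of ChIP to input reads over a library constant. Lists were not filtered on FDR, and reads outside islands were not analysed here.

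Islands were apportioned by overlap to start windows and to regions (islands in at least 11 of 22 libraries), and tested with edgeR 4.0.16 (filterByExpr, TMM, quasi-likelihood, Benjamini-Hochberg adjustment) after tests on simulated data. Pools of 1 sex were fitted together. Treatment by sex, female against male, and limma on ChIP over input reads were chosen after seeing the data. Alternatives used DESeq2 1.42.0 and limma 3.58.1 in R 4.3.3. Sequence measures came from GRCm38.p6. Members and lists were chosen with earlier results of these data known. Genes named were the C-type members, the 3 highest and lowest start levels, the smallest p-values, Taf7 and Slc25a2, and others were chosen after their values were seen. Pcdha11 stands for 2 annotated genes, and the read-through models Gm42416, Gm37013 and Gm37388, which span the subclusters, and other genes that code for no protein were left out when regions were called intergenic or intronic. Replicate pairs of a group differed by a chi-square per degree of freedom of at least 3.08, more than sampling noise gives. Some listed genes are not reported here.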

Additional observations from a re-analysis of the deposited data

Results flagged for a closer look

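In the H3K36me3 enrichment of Pcdhb, the fourth male ethanol pool had a value of −0.21, against 0.14 to 0.30 in the other 5 pools of the group, a gap of 0.677 of the group's range by Dixon's test. It was 1 of 53 groups tested, and chance alone marks about 1 in 20 groups. The same library had the fewest H3K36me3 ChIP reads in autosomal islands, 1.60 M, and its part in this value was not tested.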

How the results depend on the processing

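A region of the window passed adjustment in 1 of the settings run, H3K9me3 between sexes without TMM factors, with 9 of 28 regions at p of 0.05 and 3 adjusted. The share of all regions called in that setting is not given here, so these counts cannot be set against it. In the main fit that share, with chromosome X included, was 10.1% unadjusted and 4.2% adjusted. In males the H3K9me3 count of 2 became 0 with islands of FDR 0.01 or lower and 4 with missing islands counted as 0. It was 1 with ChIP over input reads (limma), 1 with input reads and 1 with a replicate block. Leaving out 1 pool gave 0 to 2 (0 without ethanol pool 3, and 1 without water pool 1, 2, 3 or 4). These counts are over the window and can hold regions other than the 2 named above. With input reads, neither of the 2 was called. With islands of FDR 0.01 or lower, the Pcdhb8 to Pcdhb9 region had no fit. The Pcdha12 to Pcdhac1 region missed an unadjusted 0.05 without ethanol pool 2, and the Pcdhb8 to Pcdhb9 region without ethanol pool 4. In females the count became 1 with limma. The interaction gave 1 with limma and 1 with input reads. Between sexes, H3K9me3 gave 2 with DESeq2, 4 with limma and 2 with a replicate block. For H3K36me3 in males the count became 0 with missing islands counted as 0. There the difference of the Pcdha12 to Pcdhac1 region was 0.53 (SE 0.31), against 0.51 (SE 0.15) in the main fit. The count was also 0 with limma, where this region turned to −0.27, and 1 whichever pool was left out. Between sexes H3K36me3 gave 0 with islands of FDR 0.01 or lower, with missing islands as 0, with input reads and with a replicate block. Same-numbered pools did not pair: correlations of their deviations ran from −0.11 to 0.072. Of the member start windows, Pcdhb15 alone could be tested, in 5 fits, none with a call, with edgeR adjusted p of 0.958 to 0.996. H3K36me3 start-window fits with FDR 0.01 or lower were not run, since fewer than 20 windows remained.

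With islands of FDR 0.01 or lower, H3K9me3 enrichment was −0.093 in Pcdha and 0.23 in Pcdhb, and coverage of Pcdha was 13.7% for H3K9me3 and 3.22% for H3K36me3, and of Pcdhb 1.56% for H3K36me3. Against the constant of the deposited fold, H3K9me3 enrichment was 0.50 in Pcdha and 0.89 in Pcdhb, and H3K36me3 0.25 and 0.30. With the median of deposited folds it was 0.52, 0.93 and 0.95 in Pcdha, Pcdhb and Pcdhg for H3K9me3, and 0.30 and 0.32 in Pcdha and Pcdhb for H3K36me3. For H3K9me3 the mean stayed higher in Pcdhb than in Pcdha under each of these references. Settings on missing islands, on ChIP over input reads and all those on the sexes were chosen after seeing the data. The causes of these changes were not tested. At the depth of the H3K36me3 libraries, 7 regions a sex had an island in every pool and could be tested.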
